A study of Zea mays with 12 samples.

Results

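The probe sets described here gave a signal in immature ears of the maize inbred Mo17 and little or none in those of the inbred B73. They were chosen by measured values of the inbreds, as the non-control probe sets above the 50th percentile of their array on all 3 Mo17 arrays and below the 25th percentile on all 3 B73 arrays, in the deposited signals, and 39 of 17621 probe sets were taken. One further probe set met both limits and was left out by name. Below, "detected" means above the 50th percentile of the array and nothing more. Since the values of the inbreds chose the 39, differences between B73 and Mo17 are given as a description with no test, and so is every comparison of a hybrid with a parent.

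Transcripts were measured in 12 samples of immature ears from 4 genotypes, with 3 biological replicates of each. B73 and Mo17 were the inbreds, and B73xMo17 and Mo17xB73 their F1 hybrids from reciprocal crosses. All plants were grown in the field with no treatment that set the genotypes apart, and every sample was a pool of 6 ears, 3.7 to 5.4 mm long, without husk and silk, collected over 3 consecutive days. Each pool went to its own Affymetrix maize array, and by its title the series concerns additive expression in hybrids of lines that differ in cis.

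B73 and Mo17 are among the most widely used maize inbreds, and maize lines are known to differ in gene content, in transposons near genes and in many single bases. A hybrid carries both parental genomes in every nucleus, so a transcript made from the Mo17 copy alone, at the same rate per copy, would lie midway between the parents on a linear scale. An Affymetrix probe set is a group of short oligonucleotides, and a base difference under them lowers the signal even where the transcript is made. A B73 transcript that is absent and one that the probes do not match therefore cannot be told apart in these values, and neither can fewer cells of a type and less RNA per cell.

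None of the 39 probe sets has a gene in the platform annotation used here, which names 1452 of the 17621, or 8.24%. They are given by array identifier, whose leading number is that of a sequence cluster, and no gene, protein or chromosome is assigned to any of them. Of the 39, 27 carry the letter A in the identifier (69.2%, against 60.6% of all probe sets) and 12 the letter S. By the last part of the identifier, 32 end in _at alone, 5 in _a_at, 2 in _x_at and 0 in _s_at. In Affymetrix naming an _x_at probe set contains probes that match other sequences too, and an _s_at probe set has probes common to several transcripts. The 39 belong to 39 different clusters.

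The arrays differed in overall brightness, with medians of 123 to 231 as deposited, so each array was scaled to a common median. Signals below a common floor of 12.2 were set to it. B73 replicate 2 stood apart at the low end: its 1st percentile was 3.90 as deposited, against 0.455 to 0.647 on the other arrays. At the floor were 23 of the 39 probe sets on that array, against 35 on B73 replicate 1 and 37 on B73 replicate 3. Without B73 replicate 2, 46 probe sets met the limits. The labelled tissue was checked against marker genes. The 14 probe sets of 12 ear meristem and floret genes, such as the meristem homeobox gene kn1, ranked at the 66.2th percentile in the median, with 10 above the 50th. Those of endosperm, pollen and anther, and photosynthetic genes had median ranks at the 20.1th, 11.0th and 47.3th percentiles, with 5 of 15, 2 of 7 and 3 of 8 probe sets above the 50th. Among these were sh1, a sucrose synthase gene, with probe sets at the 97.1th and 91.8th percentiles, and the profilin genes PRO4 and PRO5 at the 96.9th and 96.1th. Summed signals of the ear list did not overlap between the inbreds, at 9684 to 10689 on B73 arrays and 8509 to 9620 on Mo17 arrays. Those of the endosperm list did not overlap either, at 4897 to 5258 in B73 and 5328 to 6095 in Mo17. Those of the pollen and anther list did, at 5863 to 6228 and 4896 to 6142. Genes of the ear list went both ways. Means of kn1 were 1468 in B73 and 2387 in Mo17, and zap1, zag2 and fea2 were also higher in Mo17. ZAG3 was at 1613 and 981, and ZAG1, yab9, rld1, lg4b, tb1 and the brighter ZMM2 probe set were also higher in B73. The brighter zmm14 probe set was at 2461 and 1392, the dimmer at 52.1 and 84.9. In the endosperm list the brightest sh1 probe set was at 2908 and 3578, while others went both ways. Summed over 8 photosynthetic probe sets, signals ran from 1269 to 1885 on B73 arrays and 1815 to 1947 on Mo17 arrays. Hybrid arrays gave 1535 to 1864. Cab-m7 was at means of 604 in B73 and 1028 in Mo17, and psan1 and rbcs1 also had the higher mean in Mo17. Every Ppdk1 probe set had the higher mean in B73. No difference in tissue is read from these sums, and the part of other tissues in the results was not tested.

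The 39 probe sets covered a wide range of brightness in Mo17. Mean Mo17 signals ran from 160 to 3762 with a median of 436, and the mean B73 signals from the floor to 18.9. All 3 B73 arrays were at the floor for 22 probe sets, 1 or 2 arrays for 16, and none for 1. The Mo17 mean over the B73 mean ran from 8.77 to at least 308. Ratios of the 22 probe sets at the floor are lower bounds, taken against the floor. Those of the 16 with 1 or 2 B73 arrays raised to the floor are lower bounds as well. The coefficient of variation between the 3 Mo17 arrays had a median of 10.3% and reached 41.9%.

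**Figure D1:**
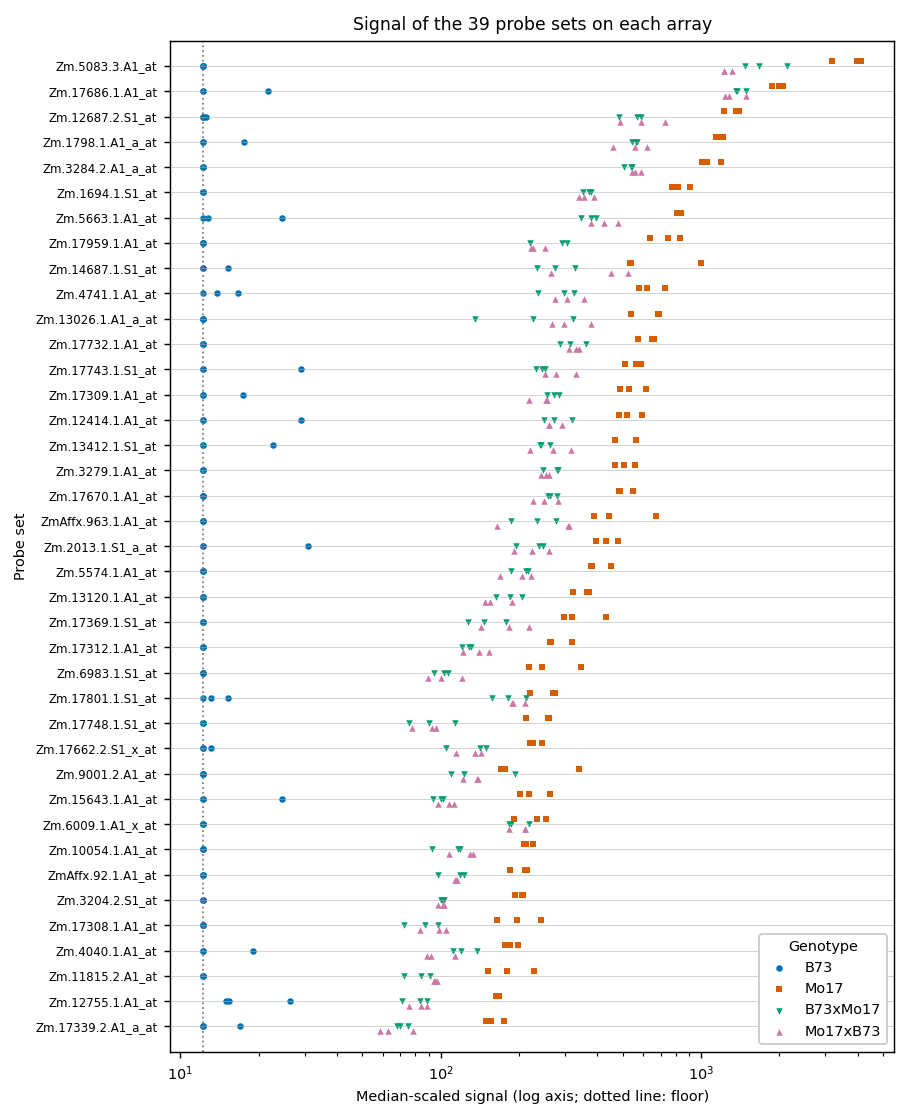
Signal of each of the 39 probe sets on each of the 12 arrays, scaled to a common array median, on a log axis and ordered by the mean in Mo17. Every point is 1 array and the dotted line is the floor of 12.2. The hybrid arrays stand well to the right of the B73 arrays for all 39 probe sets, and to the left of the Mo17 arrays for 37 of them.

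The brightest of the set was Zm.5083.3.A1_at. It was at the floor of 12.2 on all 3 B73 arrays and at 3975, 3179 and 4131 on the Mo17 arrays of replicates 1 to 3. The B73xMo17 arrays gave 1475, 1671 and 2135 and the Mo17xB73 arrays 1227, 1320 and 1224. The groups did not overlap, every B73xMo17 array lying above every Mo17xB73 array, and all hybrid arrays lying below the lowest Mo17 array. The mean hybrid signal was 0.401 ± 0.049 of Mo17 (SE, with the spread of 6 hybrid and 3 Mo17 arrays).

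Next came Zm.17686.1.A1_at, at 12.2, 21.7 and 12.2 in B73 and 2058, 1866 and 1995 in Mo17. It read 1486, 1356 and 1374 in B73xMo17 and 1276, 1237 and 1491 in Mo17xB73. These hybrid arrays were nearer to Mo17 than to B73, and the 2 hybrids overlapped. The mean hybrid signal was 0.694 ± 0.029 of Mo17 (SE), the third highest of the 39.

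Zm.12687.2.S1_at had 12.2, 12.6 and 12.2 in B73, 1226, 1404 and 1359 in Mo17, 484, 588 and 569 in B73xMo17 and 486, 586 and 728 in Mo17xB73. Zm.1798.1.A1_a_at had 12.2, 17.6 and 12.2 in B73, 1212, 1201 and 1140 in Mo17, 566, 543 and 561 in B73xMo17 and 622, 558 and 458 in Mo17xB73. In both, the 6 hybrid arrays were intermediate and the reciprocal hybrids overlapped, with hybrid means of 0.431 and 0.466 of Mo17. Zm.3284.2.A1_a_at was at the floor in B73, at 1192, 1052 and 1008 in Mo17, at 543, 540 and 507 in B73xMo17 and at 590, 556 and 545 in Mo17xB73. Its 2 hybrids did not overlap but differed by little, and their mean was 0.504 ± 0.028 of Mo17 (SE).

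The other 3 of the 8 brightest gave similar pictures. Zm.1694.1.S1_at was at the floor in B73, at 770, 817 and 909 in Mo17, at 378, 371 and 352 in B73xMo17 and at 388, 340 and 354 in Mo17xB73. Zm.5663.1.A1_at had 12.7, 24.7 and 12.2 in B73, 807, 817 and 838 in Mo17, 345, 394 and 379 in B73xMo17 and 423, 378 and 478 in Mo17xB73. The hybrid arrays were intermediate in each, at means of 0.437 and 0.487 of Mo17, and the reciprocal hybrids overlapped. Zm.17959.1.A1_at was at the floor in B73, at 635, 830 and 749 in Mo17, at 306, 220 and 292 in B73xMo17 and at 251, 221 and 227 in Mo17xB73. Its hybrid mean, 0.343 ± 0.034 of Mo17 (SE), was the lowest fraction of the 39.

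Across the whole set the hybrids had close to 0.5 of the Mo17 signal. The mean hybrid fraction, the 6 hybrid arrays over the mean of the 3 Mo17 arrays, had a median of 0.492 over the 39 probe sets, quartiles of 0.458 and 0.517 and a range from 0.343 to 0.878. From 0.4 to 0.6 lay 32 of the 39 (82.1%), and 23 lay from 0.45 to 0.55. The fraction was below 0.4 in 3 and above 0.6 in 4. Over all 11126 probe sets tested, where the inbreds mostly differ little, the ratio of hybrid to Mo17 had a median of 0.982 and quartiles of 0.886 and 1.1. Per array, the median fraction of the 39 was 0.468, 0.478 and 0.486 on the B73xMo17 arrays and 0.516, 0.505 and 0.479 on the Mo17xB73 arrays. The 2 hybrids overlapped in this median, at 0.477 ± 0.009 in B73xMo17 and 0.50 ± 0.019 in Mo17xB73 (SD, n = 3).

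**Figure D2:**
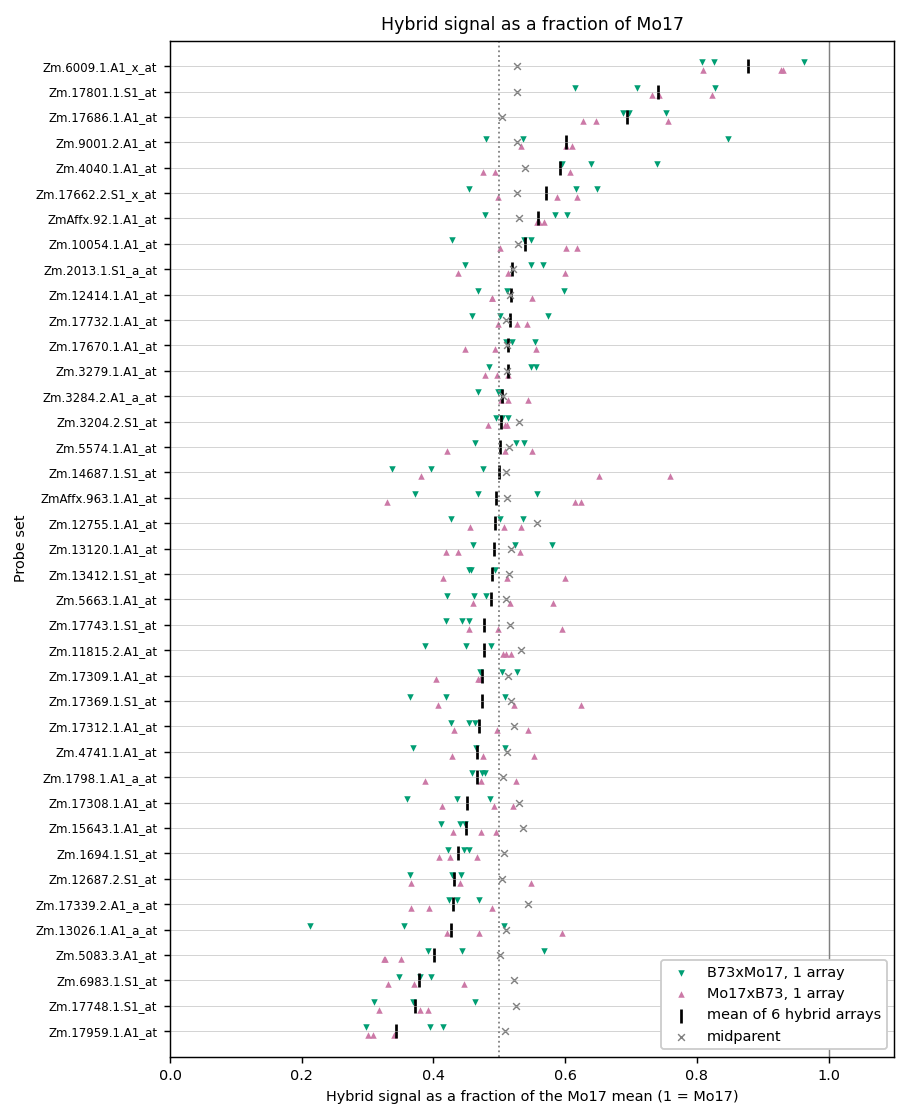
Hybrid signal as a fraction of the mean Mo17 signal for each of the 39 probe sets, ordered by the mean of the 6 hybrid arrays (black bar). Each triangle is 1 hybrid array, a cross is the midparent, the dotted line is 0.5 and the solid line is Mo17. The bars run from 0.343 for Zm.17959.1.A1_at to 0.878 for Zm.6009.1.A1_x_at, and 32 of 39 lie from 0.4 to 0.6.

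The tightest fraction was that of Zm.3204.2.S1_at. It was at the floor in B73, at 193, 205 and 207 in Mo17, at 102, 99.8 and 103 in B73xMo17 and at 97.4, 103 and 102 in Mo17xB73. The mean was 0.502 ± 0.012 of Mo17 (SE), and the 6 arrays ran from 0.483 to 0.513. The widest were Zm.14687.1.S1_at and Zm.9001.2.A1_at, described below, with standard errors of 0.131 and 0.155. Zm.3279.1.A1_at, Zm.17670.1.A1_at, Zm.5574.1.A1_at and Zm.17732.1.A1_at likewise did not rise above it on B73 arrays, with hybrid means of 0.513, 0.514, 0.501 and 0.517. These 4 probe sets and Zm.3204.2.S1_at were chosen after their values were seen.

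All 6 hybrid arrays lay below the lowest Mo17 array and above the highest B73 array for 37 of the 39. The same held for 12.5% of all probe sets tested, with inbreds that did not overlap in either order. The rule made the inbreds of the 39 far apart, so nothing is read from this contrast. The exceptions were Zm.6009.1.A1_x_at, where 3 hybrid arrays reached the Mo17 range, and Zm.9001.2.A1_at, where 1 did.

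The rank of the 39 within the hybrid arrays was not used to choose them. All 6 hybrid arrays were above the 50th percentile for 21 of the 39, between 1 and 5 arrays for 5, and no array for 13. Over all probe sets tested 74.7% were above the 50th percentile on all 6 hybrid arrays. The lowest rank of any of the 39 on any hybrid array was the 35.4th percentile, on a scale where all had been below the 25th percentile on each B73 array. No hybrid array was at the floor for any of them. The 13 probe sets below the 50th percentile on every hybrid array had Mo17 means of at most 283, and those above it on all 6 included the 10 brightest. With a limit at the 40th percentile 34 were above it on all 6 hybrid arrays, and at the 60th percentile 8.

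The midparent, the mean of both parental signals, was at 0.502 to 0.557 of Mo17 for the 39 (median 0.517). All 6 hybrid arrays were below it for 10 probe sets and above it for 3, against 12.3% and 8.84% of all probe sets tested. The parental arrays that chose the 39 also set the midparent, and nothing is read from these counts. As deposited, with no scaling, the counts were 3 below and 3 above, against 12.3% and 0.773% of all probe sets tested. The median fraction was then 0.522, above the midparent's 0.519. With quantile normalization the counts were 10 and 3, against 14.5% and 7.91%, and the median was 0.486. The 3 probe sets above the midparent on all 6 hybrid arrays were the same under the 3 scalings. Of the 10 below it with median scaling, only 3 were below it under all 3 scalings.

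The 3 above were Zm.6009.1.A1_x_at, Zm.17801.1.S1_at and Zm.17686.1.A1_at. Zm.6009.1.A1_x_at was at the floor on all B73 arrays, at 254, 235 and 190 in Mo17, at 187, 183 and 218 in B73xMo17 and at 183, 210 and 211 in Mo17xB73. The hybrids overlapped Mo17 and each other, and the mean was 0.878 ± 0.078 of Mo17 (SE), the highest of the 39. Zm.17801.1.S1_at had 15.2, 13.1 and 12.2 in B73, 221, 276 and 271 in Mo17, 212, 158 and 181 in B73xMo17 and 190, 211 and 187 in Mo17xB73. Its 6 hybrid arrays were below all 3 Mo17 arrays, at a mean of 0.741 ± 0.060 (SE), and the reciprocal hybrids overlapped. As deposited, the fractions of the 3 were 0.946, 0.769 and 0.735 in the order named.

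The 3 below were Zm.17959.1.A1_at, described above, Zm.17748.1.S1_at and Zm.6983.1.S1_at. Zm.17748.1.S1_at was at the floor in B73, at 259, 261 and 212 in Mo17, at 113, 75.5 and 90.2 in B73xMo17 and at 92.7, 77.3 and 95.7 in Mo17xB73. Zm.6983.1.S1_at was at the floor in B73, at 346, 218 and 246 in Mo17, at 107, 94.0 and 103 in B73xMo17 and at 100, 120 and 89.3 in Mo17xB73. Hybrid arrays in both were all below the lowest Mo17 array, at means of 0.372 ± 0.034 and 0.379 ± 0.057 (SE). The fraction of Zm.6983.1.S1_at was 0.441 without Mo17 replicate 1, the array that was high for it. As deposited, the fractions of the 3 were 0.357, 0.391 and 0.409.

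Of the 5 highest and 5 lowest fractions, 3 more are described here. Zm.9001.2.A1_at was at the floor in B73, at 170, 339 and 176 in Mo17, at 194, 109 and 123 in B73xMo17 and at 122, 139 and 137 in Mo17xB73. Mo17 replicate 2 was far above the other Mo17 arrays, and without it the hybrid fraction was 0.793 in place of 0.601. Zm.4040.1.A1_at had 12.2, 19.0 and 12.2 in B73, 199, 185 and 177 in Mo17, 111, 138 and 120 in B73xMo17 and 88.7, 92.1 and 114 in Mo17xB73, a mean of 0.592 ± 0.045 (SE). Zm.13026.1.A1_a_at was at the floor in B73, at 681, 691 and 537 in Mo17, at 226, 323 and 135 in B73xMo17 and at 299, 379 and 267 in Mo17xB73. The reciprocal hybrids overlapped in each of these, and B73xMo17 replicate 3 was the lowest hybrid array of Zm.13026.1.A1_a_at, at 0.212 of Mo17.

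The fraction was somewhat lower among bright probe sets. It had a median of 0.466 over the 13 brightest in Mo17 (555 to 3762), 0.494 over the 13 in the middle (256 to 542) and 0.502 over the 13 dimmest (160 to 244). The midparent also differed, at 0.502 to 0.516 of Mo17 over the 13 brightest and 0.525 to 0.557 over the 13 dimmest. Spearman's rho of Mo17 signal and fraction was -0.23 across the 39. Mo17 signal enters both measures, so this is a description only, and the part of the floor in it was not tested.

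The reciprocal hybrids, which carry the same 2 parental genomes with the parents exchanged in the cross, gave the test that the choice of probe sets did not use. A limma model over all 11126 probe sets tested called 0 of the 39 higher in B73xMo17 and 0 higher in Mo17xB73 at an adjusted p under 0.05, and over all probe sets it called 0, which is 0% in either direction. At an unadjusted p under 0.05 limma had 2 of the 39, 1 in each direction, against 288 of all probe sets (2.59%). The log2 difference, B73xMo17 minus Mo17xB73, had a median of -0.02 over the 39 and 0.01 over all probe sets tested, and it was above 0 for 18 and below 0 for 21 of the 39. The 3 arrays of one hybrid did not overlap those of the other for 3 of the 39, and for 9.18% of all probe sets tested. Of these, 1 was higher in B73xMo17 (Zm.5083.3.A1_at; 4.97% of all probe sets) and 2 were higher in Mo17xB73 (Zm.3284.2.A1_a_at and Zm.11815.2.A1_at; 4.21% of all).

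The largest difference towards B73xMo17 was that of Zm.5083.3.A1_at, 0.47 ± 0.13 on the log2 scale (SE; adjusted p = 1.00 in limma; 95% interval 0.20 to 0.74), from the array signals given above. The value was 0.32 without B73xMo17 replicate 3, the highest hybrid array, and 0.55 as deposited. The largest towards Mo17xB73 were Zm.13026.1.A1_a_at, -0.54 ± 0.24 (95% interval -1.07 to -0.01), and Zm.14687.1.S1_at, -0.52 ± 0.27 (95% interval -1.10 to 0.05). Neither passed the adjusted test in limma, and both depended on single arrays. The value of Zm.13026.1.A1_a_at was -0.21 without B73xMo17 replicate 3 and -0.83 without B73xMo17 replicate 2. That of Zm.14687.1.S1_at was -0.32 without Mo17xB73 replicate 2 and -0.82 without Mo17xB73 replicate 3. Zm.14687.1.S1_at had 12.2, 15.3 and 12.2 in B73, 1003, 536 and 540 in Mo17, 329, 234 and 275 in B73xMo17 and 451, 526 and 264 in Mo17xB73. Its Mo17 replicate 1 was well above the other Mo17 arrays, and the 2 hybrids overlapped.

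The test does not show that the reciprocal hybrids were equal. The 95% intervals of the log2 difference reached 0.19 to 0.61 to either side of the estimate, with a median of 0.36, so smaller differences are not told from 0. The spread behind the intervals was estimated over all 4 genotypes, so B73 arrays set to the floor entered it. For 22 of the 39 all 3 B73 arrays were at the floor. The widest interval, that of Zm.2013.1.S1_a_at, drew on B73 signals of 12.2, 31.0 and 12.2. The widths therefore do not measure the spread between hybrid arrays alone. With this pooled spread the interval lay within -1 to 1, or 2-fold either way, for 37 of the 39 probe sets. That count rests in part on the intervals that may be too narrow. The exceptions were Zm.14687.1.S1_at and Zm.13026.1.A1_a_at.

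**Figure D3:**
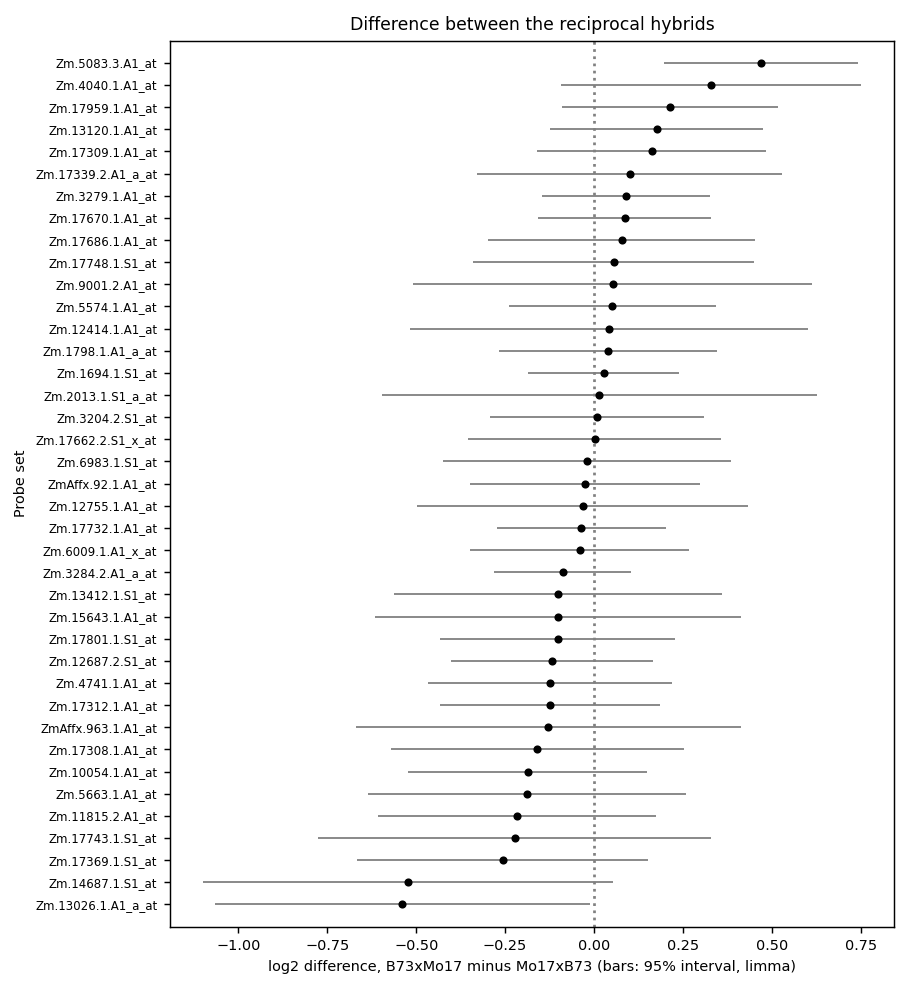
The log2 difference between the reciprocal hybrids, B73xMo17 minus Mo17xB73, for each of the 39 probe sets, ordered by size. Points are limma estimates from 12 arrays and bars are 95% intervals. They run from -0.54 for Zm.13026.1.A1_a_at to 0.47 for Zm.5083.3.A1_at, and 0 of 39 passed at an adjusted p under 0.05.

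Other probe sets of the same sequence cluster gave a second reading for some of the 39. A cluster with more than 1 probe set held 19 of the 39 (48.7%), against 38.9% of all probe sets, and these clusters held 40 other probe sets, of which 0 were among the 39. Of the 40, 14 were detected in both inbreds, 2 in B73 without being detected in Mo17, 3 in Mo17 without being detected in B73, and 21 in neither. Signals in the inbreds were within 2-fold for 24 of the 40. They were at least 4-fold higher in Mo17 for 12 and at least 4-fold higher in B73 for 1. Some of the 24 were near the floor in both inbreds, so the floor bears on their ratio. Examples are Zm.9001.2.S1_at, at means of 12.2 in B73 and 12.9 in Mo17, and ZmAffx.963.1.S1_at, at 16.1 and 20.8. No share over all probe sets is given beside these counts. At least 1 other probe set of the cluster was detected on all B73 arrays for 10 of the 19, and none for 9. Whether probe sets of a cluster measure the same transcript, or share probes, was not tested.

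**Figure D4:**
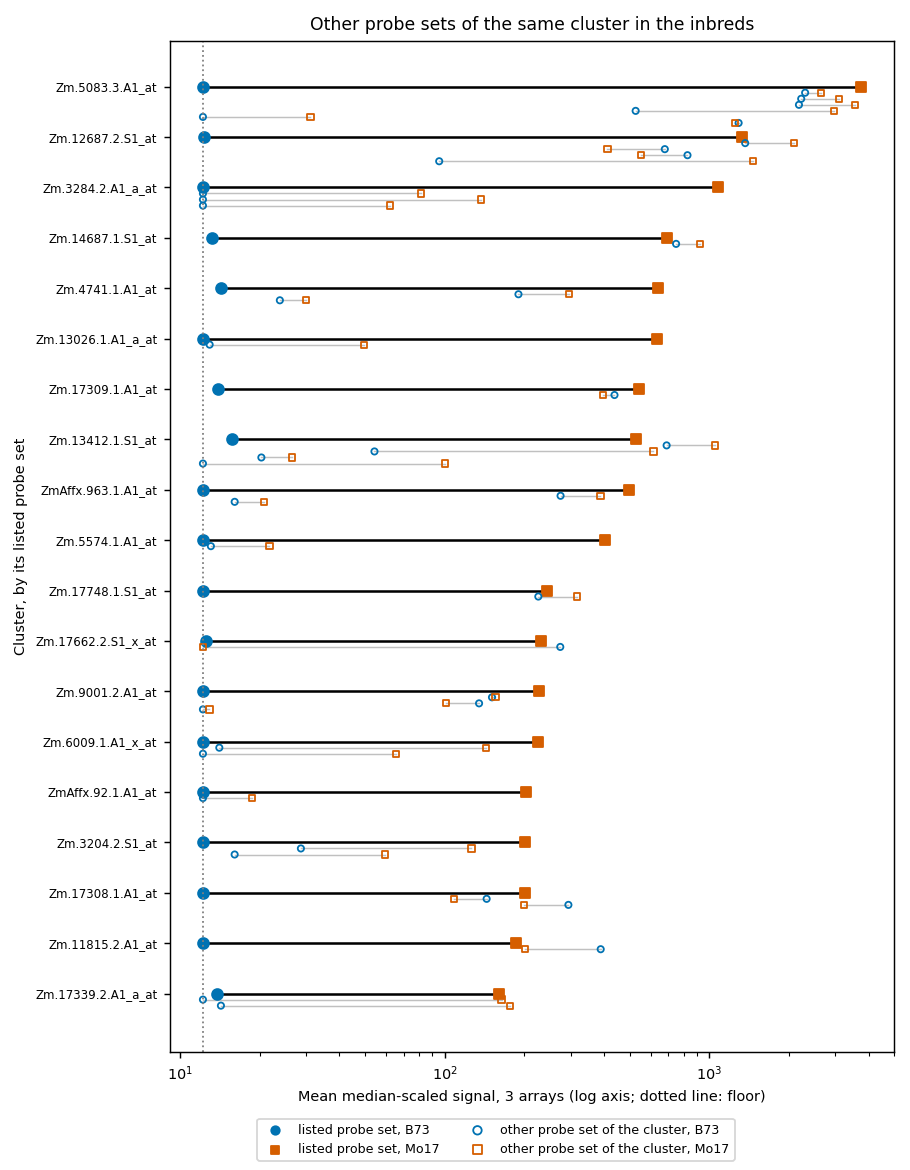
Mean signals in B73 and Mo17 (3 arrays each, log axis, floor dotted) of the 19 listed probe sets whose cluster holds others, as filled symbols, and of the 40 other probe sets, as open symbols just below. In 10 of 19 clusters at least 1 open B73 circle is a probe set detected in B73, and in the cluster of Zm.17662.2.S1_x_at the open Mo17 square is at the floor and the open B73 circle at 274.

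In the cluster of Zm.5083.3.A1_at, 5 of the 6 other probe sets were detected in both inbreds. Zm.5083.1.A1_a_at was at 2304 ± 425 in B73 and 2651 ± 333 in Mo17 (SD, n = 3), and Zm.5083.4.A1_x_at at 1292 ± 282 and 1252 ± 221. These 2 differed between the inbreds by less than the larger SD, while the listed probe set of the cluster was at the floor in B73. Zm.5083.2.A1_x_at was in between, at 362, 683 and 537 in B73, 3132, 2346 and 3415 in Mo17, 1245, 1413 and 1754 in B73xMo17 and 1073, 1140 and 1066 in Mo17xB73. Its B73xMo17 arrays were all above its Mo17xB73 arrays, as for Zm.5083.3.A1_at, and its hybrid fraction was 0.432. That order of the hybrids was also seen in Zm.5083.1.A1_a_at, Zm.5083.1.A1_x_at and Zm.5083.4.A1_x_at, all detected in both inbreds. It held for 4.97% of all probe sets tested, and none of these passed the adjusted test in limma. The margin was small in Zm.5083.4.A1_x_at, at 1031 on the lowest B73xMo17 array and 1011 on the highest Mo17xB73 array. All were read on the same hybrid pools, so they are not independent readings. In Zm.5083.2.A1_a_at the 2 hybrids overlapped.

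The cluster of Zm.12687.2.S1_at held probe sets with opposite orders of the inbreds. Zm.12687.2.S1_x_at had 67.9, 156 and 62.3 in B73, 1410, 1522 and 1472 in Mo17, 724, 796 and 839 in B73xMo17 and 724, 837 and 1019 in Mo17xB73, a hybrid fraction of 0.561. Zm.12687.1.S1_at was higher in B73, at 778, 747 and 513 against 380, 428 and 429 in Mo17. Its hybrids, at 708 ± 16.3 in B73xMo17 and 781 ± 145 in Mo17xB73, were at the level of B73 and above all Mo17 arrays. Mo17xB73 replicate 3 was the highest hybrid array for all 3 of these probe sets.

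A complementary pair was found in the cluster of Zm.17662.2.S1_x_at. That probe set had 13.2, 12.2 and 12.2 in B73, 246, 220 and 226 in Mo17, 142, 105 and 149 in B73xMo17 and 135, 143 and 115 in Mo17xB73. The other probe set of the cluster, Zm.17662.1.S1_at, had 245, 290 and 286 in B73, the floor on all Mo17 arrays, 105, 97.6 and 99.7 in B73xMo17 and 65.8, 111 and 81.5 in Mo17xB73. Each was at or near the floor in the inbred where the other was bright, and both gave a signal on all 6 hybrid arrays.

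In other clusters further probe sets were higher in Mo17 than in B73 but dim, and those named here were not detected in Mo17 by the limit used. Zm.6009.1.A1_at had 13.1, 16.9 and 12.2 in B73, 172, 126 and 131 in Mo17, 83.9, 114 and 119 in B73xMo17 and 115, 114 and 105 in Mo17xB73. Zm.6009.1.A1_s_at was at the floor in B73 and at 65.5 ± 9.86 in Mo17, 54.1 ± 14.9 in B73xMo17 and 52.6 ± 7.84 in Mo17xB73. Hybrid fractions were 0.757 and 0.814, both above 0.6, as for Zm.6009.1.A1_x_at in the same cluster. Around Zm.17339.2.A1_a_at, whose fraction was 0.430, the other 2 probe sets had hybrid fractions of 0.472 and 0.437. All 3 others around Zm.3284.2.A1_a_at were at the floor on every B73 array and had fractions of 0.627, 0.597 and 0.594. Over the 12 other probe sets that were at least 4-fold higher in Mo17 the fraction ran from 0.432 to 0.814, with a median of 0.603. Their Mo17 means were 4.41 to 15.4 times the B73 means after flooring, against a median of 29.8 for the 39. Where B73 arrays were at the floor, as in Zm.6009.1.A1_s_at, these ratios too are lower bounds. With smaller ratios the midparent, taken with the floor, is a higher fraction of Mo17. The median of 0.603 is therefore not set against the 0.492 of the 39. These 12 belong to 7 of the 19 clusters.

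In 4 clusters a probe set ending in _s_at with nearly the same identifier was within 2-fold between the inbreds. Zm.14687.1.S1_s_at was at 729, 734 and 786 in B73, 1233, 779 and 751 in Mo17, 882, 723 and 786 in B73xMo17 and 983, 1220 and 717 in Mo17xB73. The arrays that were high for it, Mo17 replicate 1 and Mo17xB73 replicate 2, were also the highest of their genotypes for Zm.14687.1.S1_at. ZmAffx.963.1.A1_s_at was at 300, 239 and 284 in B73 and 550, 323 and 292 in Mo17, where replicate 1 was again highest, as it was for ZmAffx.963.1.A1_at (669, 442 and 387 in Mo17). Zm.17748.1.S1_s_at was at 232, 209 and 237 in B73 and 299, 341 and 310 in Mo17, where the inbreds did not overlap. For Zm.17309.1.A1_s_at the B73 mean of 439 ± 49.3 and the Mo17 mean of 396 ± 58.4 differed by less than either SD. Some others had the higher mean in B73. Zm.11815.1.A1_a_at was at 389 ± 45.5 in B73 and 201 ± 42.4 in Mo17, and Zm.17308.2.A1_s_at at 294 ± 60.6 and 199 ± 68.5, the latter with overlapping spreads.

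The opposite pattern, probe sets detected in B73 and not in Mo17 by the same limits, was met by 68 probe sets. Their hybrid signal had a median of 0.525 of B73, against 0.492 of Mo17 for the 39, and 57 of 68 (83.8%) lay from 0.4 to 0.6, against 82.1%. As deposited the order was the reverse, at 0.438 for the 68 and 0.522 for the 39, so no difference between these sets is read. The letter A was carried by 86.8% of the 68 and 69.2% of the 39, and 32.4% and 48.7% were in clusters with other probe sets. No test of these shares was made.

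The limits were crossed narrowly by some. Nearest inside were Zm.12755.1.A1_at, whose highest B73 rank was the 24.8th percentile, Zm.2013.1.S1_a_at, also at the 24.8th, and Zm.17339.2.A1_a_at, whose lowest Mo17 rank was the 50.3th. Zm.12755.1.A1_at was the 1 probe set above the floor on all B73 arrays, at 15.3, 26.4 and 14.9, with 168, 166 and 164 in Mo17, 83.1, 88.8 and 70.8 in B73xMo17 and 75.4, 88.2 and 84.0 in Mo17xB73. Nearest outside were Zm.17475.1.S1_x_at, annotated as the glutathione transferase gene gst13, Zm.12050.1.A1_at and Zm.832.1.A1_at, whose highest B73 ranks were the 25.2th, 25.4th and 25.5th percentiles. Their hybrid fractions were 0.795, 0.518 and 0.743. In Zm.17475.1.S1_x_at and Zm.832.1.A1_at the B73 signal came from replicate 2, at 31.8 and 32.7, with the other B73 arrays at the floor.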

How the data were processed

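The deposited values are intensities, 1 linear signal per probe set and array made with MAS5, per the submitters' processing notes. For MAS5, the sources used here give neither version nor scaling target. Arrays were grouped by the genotype in their titles. Of 17734 probe sets, 113 AFFX controls were left out. Probe sets above the 40th percentile of their array on at least 3 of 12 arrays were kept (11126, the 39 described here among them by construction), each array was scaled to a common median over these, signals below 12.2 (the median over arrays of the 20th percentiles) were set to that floor, and log2 was taken. The reciprocal hybrids were compared with limma 3.58.1 in R 4.3.3 (a mean per genotype over 12 arrays, lmFit, eBayes with an intensity trend, two-sided, Benjamini-Hochberg over 11126 probe sets, threshold 0.05). Residual degrees of freedom were 8 and prior degrees of freedom 5.23. In data simulated for this comparison over 11126 probe sets, limma called 91 of 100 changes of 1 and 100 of 100 changes of 2 on the log2 scale, and 11 unchanged probe sets. The changes were planted only where the mean hybrid signal was above 100, with normal noise. Some of the 39 were dimmer than that in the hybrids. The many planted changes also make the adjusted threshold easier to pass than in the real data. These shares therefore do not carry over to the 39.

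The hybrid fraction is the mean of the hybrid signals over the Mo17 mean; its standard error follows from the delta method. Probe sets named are the 8 brightest in Mo17, the 5 highest and 5 lowest hybrid fractions, up to 5 called either way between the hybrids, those with a gene symbol and those in clusters with 2 or more of the 39 (0 of each), and the 3 nearest each side of the limits. Members of the clusters and others named beside these were chosen after their values were seen. The 39 probe sets, the marker lists and the tests were chosen with earlier results of these data known. Marker symbols were matched through the platform annotation and the RefSeq gene table of Zm-B73-REFERENCE-NAM-5.0. The number of arrays limits the precision. No sequence of these probe sets was used here. Python 3.11.15 made the summaries and figures.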

Additional observations from a re-analysis of the deposited data

How the results depend on the processing

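The reciprocal comparison called 0 of the 39 probe sets under each of the 21 alternatives. Over all probe sets it called 6 as deposited, 2 with no filter, 0 with the replicate block, and 0 to 2 when 1 array was left out. Deviations of same-numbered arrays of the hybrids correlated at 0.46, 0.36 and -0.04 for replicates 1 to 3. These values do not settle whether the replicate numbers pair the hybrids. The median hybrid fraction, 0.492, was 0.522 as deposited, 0.473 with the B73 signal taken off, 0.466 over probe sets above the 75th percentile in Mo17, and 0.472 to 0.503 when 1 array was left out, lowest without Mo17 replicate 3. Above the 40th or 60th percentile on all 6 hybrid arrays were 34 or 8 in place of 21. The rule took 13 probe sets at the 75th and 25th percentiles, 9 at the 50th and 10th and 98 at the 40th and 30th in place of 39, and 41 to 46 when 1 inbred array was left out. Other alternatives moved these values by less than the spread between arrays. Signals near the floor limit what can be said of B73 levels.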
